A study of Mus musculus with 12 samples.

Results

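The genes described here are the prolactin receptor gene Prlr, the transcription factor genes Stat5a, Stat5b and Elf5, the feedback inhibitor genes Cish, Socs2 and Socs3, and the ligand genes Tnfsf11 and Wnt4, which prolactin and progesterone signalling use in the mammary gland. All probes that the platform annotation assigns to these 9 genes were taken, which gave 13 probes of 8 genes. Of these, 11 probes of 7 genes were above background on enough arrays to be tested, out of 10724 tested genes on the array. The RNA came from 3D cultures of primary mammary epithelial cells (MECs), which form acini in Matrigel, and was measured on 12 Illumina Mouse WG-6 v2 arrays. The study's methods list insulin, hydrocortisone, EGF and fetal bovine serum in the growth medium. They name no added prolactin or progesterone. The 4 groups, with 3 arrays each, were Blimp-1 cKO at D4, wild type at D4, Blimp-1 cKO at D3 and wild type at D3. The cKO cells came from pregnant Prdm1 BEH/CA;ROSA26:CreERT2 females, in which Cre is expressed from a ubiquitous locus, and the wild type cells from pregnant C57BL/6 females. All cultures of both genotypes received 4-hydroxytamoxifen at D0, the ligand of the CreERT2 fusion protein. No Cre allele is given for the C57BL/6 donors, so the effects of the Prdm1 deletion, of Cre itself and of the mouse line cannot be told apart. The study's methods speak of independent cultures of each genotype, from which triplicate RNA samples were taken, and do not tie an array to a culture or an animal. The p-values thus cover spread among these samples only, and part of it may be technical.

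Prolactin binds its receptor at the cell surface and activates the kinase JAK2, which phosphorylates STAT5A and STAT5B. The phosphorylated STAT5 proteins enter the nucleus, bind TTCNNNGAA elements and activate milk protein genes together with the transcription factor ELF5. CIS (from Cish) and the SOCS proteins are induced by cytokine signalling and damp it, while RANKL (from Tnfsf11) and WNT4 are paracrine signals of luminal cells that respond to progesterone. The arrays measure RNA, so neither phosphorylation nor nuclear entry of STAT5 was measured.

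The TTCNNNGAA element was looked up in the promoter windows of the genes, which run from 250 bases before to 50 bases after the annotated start (RefSeq, GRCm38.p6). The element reads the same on both strands. Of 32851 windows of this length, 8.3% held at least 1 match and 0.457% at least 2. Windows were at hand for all members but Socs2, whose promoter is not described here. The stretches around the matches are shown because they hold the letters of the STAT5 element, with the matches in capitals and each stretch on the strand of its gene.
Cish: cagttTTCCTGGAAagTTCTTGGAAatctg
Socs3: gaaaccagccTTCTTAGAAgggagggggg
Prlr: gcaaaatgagTTCTAGGAAtaagggatat
The Cish stretch lies at chr9:107296654-107296683 on the forward strand and holds 2 matches, which begin at the annotated start and 11 bases after it. The Socs3 stretch at chr11:117969502-117969530 on the reverse strand holds 1 match, 154 bases before the start of the window's transcript. That start lies inside the annotated span of Socs3, so the match does too and is not upstream of the gene's outermost 5′ end. The Prlr stretch at chr15:10223786-10223814 on the forward strand holds 1 match, 110 bases before 1 of the 3 starts given for the gene, which also lies inside its span. No match lay in the other 2 windows of Prlr, in the 2 windows each of Stat5a, Stat5b and Elf5, or in the window of Tnfsf11 or Wnt4. The windows of Stat5a and Stat5b likewise begin from starts inside the gene spans, and the outermost 5′ ends of Stat5a, Stat5b and Socs3 were not searched as windows of their own. A match is a description of the letters and was not tested as a binding site in these cells.

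Signals are given as normalized log2 values per array, in the order of the replicate numbers, and a probe counts as detected on an array at a detection p under 0.05. The number of detected probes per array ranged from 18087 to 18905, the median raw signal from 194 to 271, and the mean correlation within a group from 0.991 to 0.994. A gene was called where the limma fit of all 12 arrays gave both an adjusted p no higher than 0.05 and a change of 1.5-fold or more. For a single gene, permuting 3 and 3 arrays exactly gives no p under 0.1. Prdm1, which encodes Blimp-1, has 2 probes, of which 1 (2744650) was detected on no array. The other (2597923) read 6.85, 6.99 and 6.61 in D4 cKO and 5.84, 5.53 and 5.33 in D4 wild type cultures, where it was not detected. It was at least 1.49-fold higher in D4 cKO cultures (adjusted p = 0.00478), and it was detected on 1 of 3 arrays of D3 cKO and on 0 of 3 of D3 wild type cultures. It was tested only because cKO arrays detected it, the genotype where it was higher. No source used here places this probe inside or outside the deleted part of the gene, so it says nothing of the deletion. Of 19057 genes named by the annotation, 10724 had a tested probe. Among cell type markers, 13 of 17 luminal and 12 of 15 basal markers were tested. The luminal markers Esr1, Pgr, Prom1 and Ehf and all 8 lymphocyte markers did not pass the filter. All 11 fibroblast and all 8 endothelial markers passed it too.

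**Figure D1:**
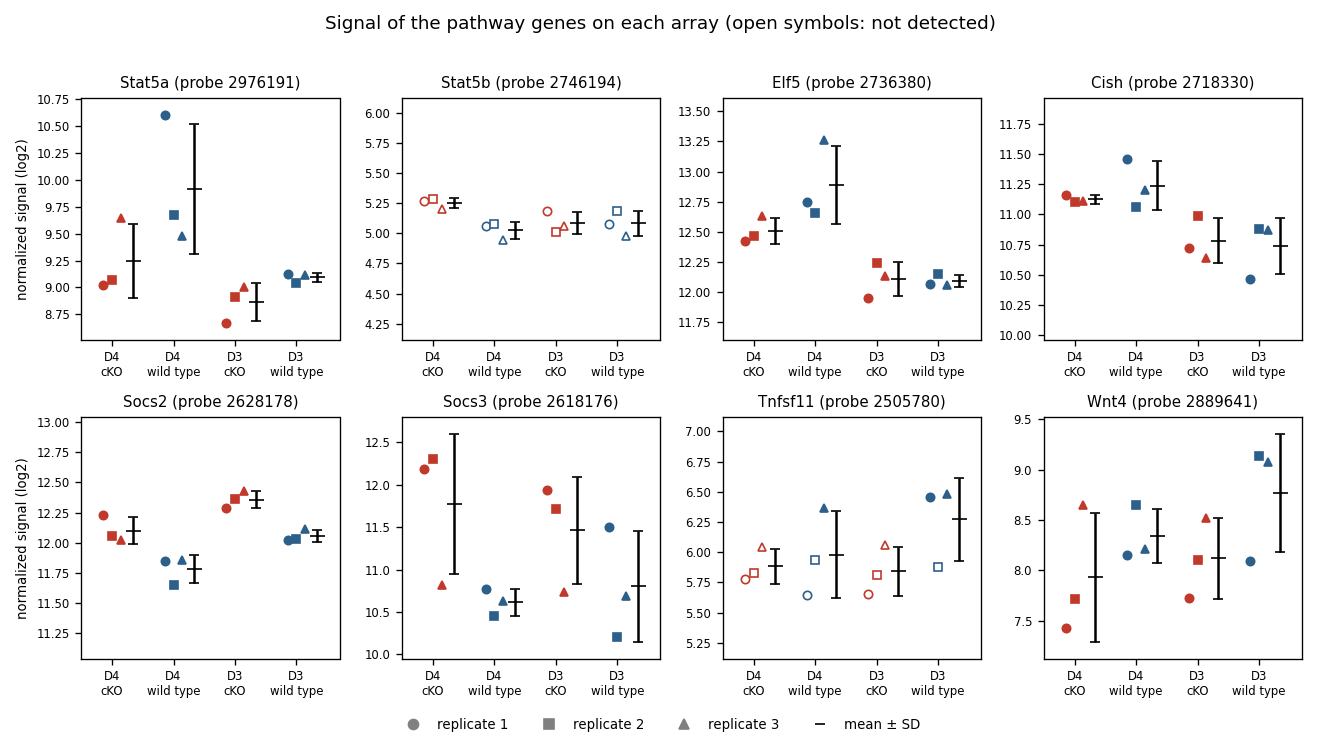
Normalized log2 signal (y axis, own range for each panel) of 8 genes on each of the 12 arrays, by group (x axis), with mean ± SD of 3 arrays beside the points and open symbols where the probe was not detected. The Elf5 probe shown was higher on all D4 arrays than on any D3 array, and Socs3 had 1 low array among the 3 of each cKO group.

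Elf5, the ETS factor that drives alveolar differentiation, was the member with the clearest change. Between D3 and D4 in wild type cultures it was called higher on 2 of its 3 probes. On the brightest probe (2736380), where every D4 array of both genotypes lay above every D3 array, it read 12.43, 12.46 and 12.63 in D4 cKO cultures, against 12.75, 12.66 and 13.26 in D4 wild type cultures. At D3 it read 11.96, 12.24 and 12.14 in cKO and 12.07, 12.15 and 12.06 in wild type cultures. The highest level was thus that of D4 wild type, followed by D4 cKO, while the D3 groups overlapped. D4 wild type cultures exceeded D3 wild type cultures by a log2 fold change of 0.80 (standard error 0.15, limma adjusted p = 0.00486). In the cKO the D4 mean exceeded the D3 mean by 0.40 (95% interval 0.07 to 0.73, adjusted p = 0.139), which did not pass. In such bulk samples, fewer cells of a type and less RNA per cell cannot be told apart.

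On the brightest Elf5 probe the D4 cKO arrays all lay below the D4 wild type arrays. The genotype difference at D4 was -0.38 (95% interval -0.71 to -0.05, adjusted p = 0.189), and at D3 it was 0.02 (-0.31 to 0.35, adjusted p = 0.978). A second Elf5 probe (2938440) read 9.53, 9.29 and 9.86 in D4 cKO and 9.98, 10.13 and 10.43 in D4 wild type cultures, also without overlap, with a genotype difference of -0.62 (-1.06 to -0.18, adjusted p = 0.113). It too was called between the days in wild type (log2 fold change 1.03, standard error 0.20, adjusted p = 0.00579). The third probe (2669510) passed in no comparison, with a day effect of 0.52 in wild type (adjusted p = 0.399). On this probe too, every D4 wild type array lay above every D3 wild type array. Its SD was 0.79 in D4 cKO and 0.77 in D3 cKO, against 0.07 in D4 wild type and 0.10 in D3 wild type. All 4 groups share in the estimate of the spread. The third probe read 9.91, 11.47 and 10.53 in D4 cKO and 10.73, 10.73 and 10.60 in D4 wild type cultures, so the genotypes overlapped, with a difference of -0.05 (-0.90 to 0.80, adjusted p = 0.968). On it cKO replicate 2 was the highest array of its group at both days, at D3 with 11.07 beside 10.03 and 9.58. The change of the genotype effect between the days was -0.40 on the brightest probe (-0.86 to 0.07, adjusted p = 0.709), so the smaller day effect in the cKO was not shown to differ from that in wild type.

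Stat5a, whose protein is the main STAT5 of the mammary epithelium, also rose between the days in wild type cultures, in a call close to the threshold. Its brighter probe (2976191) read 9.02, 9.07 and 9.64 in D4 cKO cultures, against 10.60, 9.67 and 9.48 in D4 wild type cultures. On the D3 arrays the values were 8.67, 8.92 and 9.01 in cKO and 9.12, 9.05 and 9.12 in wild type cultures. D4 wild type replicate 1 was the highest array, the genotypes overlapped at D4, and every D3 cKO array lay below every D3 wild type array. The day effect was 0.82 in wild type (standard error 0.26, adjusted p = 0.0468), and without D4 wild type replicate 1 it was 0.48 (adjusted p = 0.121). A block for the replicate number gave an adjusted p of 0.0635. The call was lost in 14 of 21 alternative settings, among them those that leave out 1 array, except D4 cKO replicate 3 and D4 wild type replicate 3. In the cKO the day effect was 0.38 (-0.19 to 0.95, adjusted p = 0.417).

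The genotype difference of Stat5a was -0.67 at D4 (-1.24 to -0.10, adjusted p = 0.177) and -0.23 at D3 (-0.80 to 0.34, adjusted p = 0.804). At D4 the replicate number is also the BeadChip, and the differences within BeadChips 1, 2 and 3 were -1.58, -0.60 and 0.17. The second Stat5a probe (2976188) gave -0.44 at D4 (adjusted p = 0.358) and 0.10 at D3 (adjusted p = 0.921), and its day effect of 0.73 in wild type just missed the threshold (adjusted p = 0.0574). Stat5b, whose protein acts alongside STAT5A and is the main STAT5 of growth hormone signalling in liver, has 1 probe (2746194). It was detected on no array, with signals from 4.94 to 5.28, and no fold is given. Prlr has no probe under its name in the annotation used and is not analysed here.

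Between the days in wild type, 2 of the 7 tested members were called, Elf5 and Stat5a, both higher at D4, against 7.09% of all tested genes called higher and 4.89% called lower. In the cKO, 0 of 7 were called (limma, 3 at an unadjusted p under 0.05), against 4.14% of all genes. The median log2 day effect over the members was 0.31 in the cKO and -0.19 in wild type, where the median over all genes was -0.01 in the cKO and -0.02 in wild type. For the change of the genotype effect between the days, 0 of 7 members were called (limma, 0 at an unadjusted p under 0.05), against 0% of all genes (793 of 10724 at an unadjusted p under 0.05). The day comparisons use the same 12 arrays as the genotype comparisons.

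**Figure D2:**
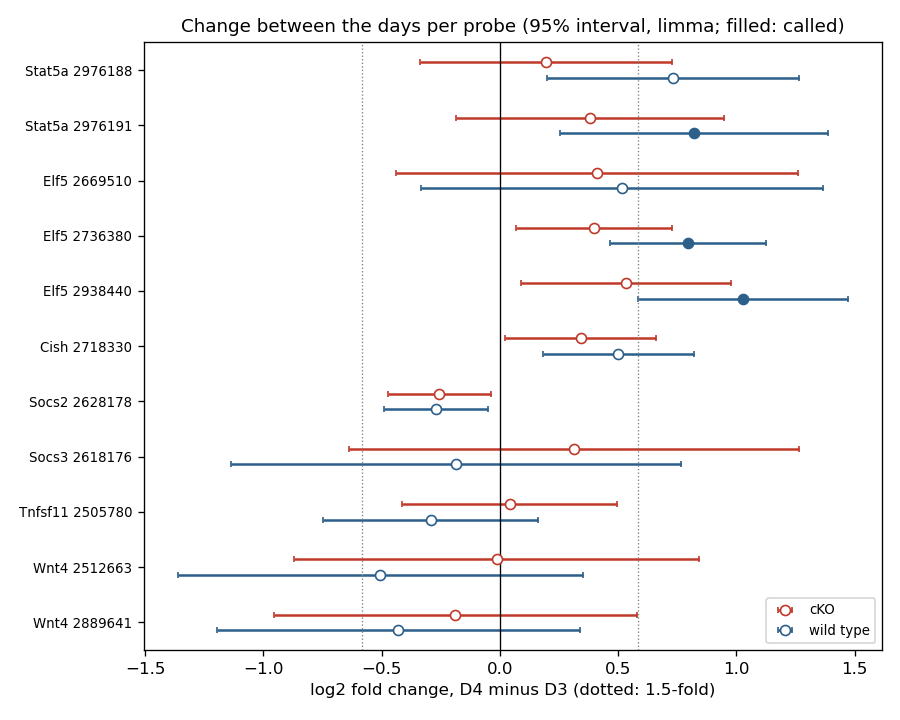
Log2 fold change of D4 over D3 (x axis, with 95% intervals from limma) for each of the 11 tested probes (y axis) in cKO and wild type cultures, with filled points where the gene was called and dotted lines at 1.5-fold. The wild type points of Elf5 probes 2736380 and 2938440 and of Stat5a probe 2976191 are filled, at 0.80, 1.03 and 0.82, and no cKO point is.

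Cish, which encodes the STAT5-induced inhibitor CIS, had a day effect in wild type that passed the adjusted p and missed the fold. It read 11.16, 11.10 and 11.11 in D4 cKO cultures, against 11.46, 11.06 and 11.20 in D4 wild type cultures. The D3 levels were 10.72, 10.99 and 10.64 in cKO and 10.47, 10.88 and 10.87 in wild type cultures. All D4 arrays lay above all D3 arrays, and the genotypes overlapped at both days. The day effect was 0.50 in wild type (standard error 0.15, adjusted p = 0.0343, under 1.5-fold, and 0.0504 under the replicate block). Without D4 wild type replicate 2 it was called (0.59, adjusted p = 0.0336). In the cKO it was 0.34 (0.02 to 0.66, adjusted p = 0.189). The genotype difference was -0.12 at D4 (-0.44 to 0.21, adjusted p = 0.739) and 0.05 at D3 (-0.28 to 0.37, adjusted p = 0.941).

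Socs2, whose product restrains growth hormone and prolactin receptors, was higher in cKO cultures by a small amount at both days. Its detected probe (2628178) read 12.23, 12.06 and 12.02 in D4 cKO cultures, against 11.85, 11.65 and 11.86 in D4 wild type cultures. D3 cultures gave 12.29, 12.36 and 12.43 in cKO and 12.02, 12.03 and 12.11 in wild type cultures. The genotypes did not overlap at either day, and within BeadChips 1, 2 and 3 at D4 the differences were 0.38, 0.40 and 0.16. The genotype effect averaged over the days was 0.31 (standard error 0.07, 95% interval 0.16 to 0.46, adjusted p = 0.0214), a 1.24-fold difference, which is under the 1.5-fold minimum. The fit takes the D3 and D4 arrays as independent. Same-numbered cKO arrays were alike across the days (correlations of 0.308 to 0.362), so the standard errors of such averages may be too small. The adjusted p was 0.0557 without D3 wild type replicate 2, 0.052 without D4 cKO replicate 1 and 0.0575 without D4 wild type replicate 2. At single days the genotype effect was 0.32 at D4 (adjusted p = 0.103) and 0.30 at D3 (adjusted p = 0.199), and the change between the days was 0.01 (-0.30 to 0.32, adjusted p = 0.990). Its day effects were -0.26 in the cKO (adjusted p = 0.150) and -0.27 in wild type (adjusted p = 0.0840). Another Socs2 probe (1250749) was detected on no array and was not tested.

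Socs3, whose product inhibits signalling through gp130 receptors and STAT3 as well as JAK2, had the widest genotype difference of the members and the widest spread. It read 12.19, 12.31 and 10.82 in D4 cKO cultures, against 10.77, 10.46 and 10.63 in D4 wild type cultures. At D3 it read 11.94, 11.71 and 10.74 in cKO and 11.51, 10.21 and 10.69 in wild type cultures. At both days cKO replicates 1 and 2 were high and cKO replicate 3 was near the wild type level, and the genotypes did not overlap at D4 but did at D3. The difference was 1.16 at D4 (0.21 to 2.11, adjusted p = 0.165) and 0.66 at D3 (-0.29 to 1.61, adjusted p = 0.599). Within BeadChips 1, 2 and 3 at D4 it was 1.42, 1.86 and 0.20. Averaged over the days it was 0.91 (0.24 to 1.58, adjusted p = 0.105), and this was called under the replicate block (adjusted p = 0.0459), without background correction (0.85, adjusted p = 0.0459) and without D4 cKO replicate 3 (1.15, adjusted p = 0.0234). Without that array the D4 difference was also called (1.63, adjusted p = 0.0425). The day effects of Socs3 were 0.31 in the cKO (adjusted p = 0.725) and -0.19 in wild type (adjusted p = 0.815).

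Tnfsf11, which encodes RANKL, was at the edge of detection. Its probe (2505780) was detected on 0 of 3 cKO and 1 of 3 wild type arrays at D4, and on 0 of 3 cKO and 2 of 3 wild type arrays at D3. It read 5.78, 5.82 and 6.05 in D4 cKO and 5.64, 5.93 and 6.36 in D4 wild type cultures. On D3 arrays it stood at 5.65, 5.81 and 6.06 in cKO and 6.46, 5.87 and 6.49 in wild type cultures. The probe was tested only because wild type arrays detected it, the genotype where its means were higher. At D3 the bound was a 1.03-fold lower mean in the cKO, which did not pass (adjusted p = 0.430), and the genotypes overlapped. For this bound the cKO group is set at the lowest signal of a detected probe or its own signal, whichever is higher on an array. No fold is given at D4 (adjusted p = 0.852), because the bound was under 1, or between the days in the cKO, where both groups were below background.

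Wnt4, a WNT ligand of side branching, gave lower means in cKO cultures at both days and passed at neither. Its brighter probe (2889641) read 7.43, 7.71 and 8.65 in D4 cKO cultures, against 8.16, 8.65 and 8.21 in D4 wild type cultures. The D3 signals were 7.72, 8.11 and 8.53 in cKO and 8.09, 9.14 and 9.08 in wild type cultures. The genotypes overlapped at both days. At D4 only cKO replicate 3 reached the wild type range, and at D3 wild type replicate 1 lay below cKO replicates 2 and 3. The difference was -0.41 at D4 (-1.18 to 0.36, adjusted p = 0.592) and -0.65 at D3 (-1.42 to 0.12, adjusted p = 0.500), and within BeadChips 1, 2 and 3 at D4 it was -0.73, -0.94 and 0.44. The second probe (2512663) gave -0.38 at D4 (adjusted p = 0.672) and -0.87 at D3 (adjusted p = 0.392). The day effects on the brighter probe were -0.19 in the cKO (adjusted p = 0.802) and -0.43 in wild type (adjusted p = 0.442).

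No member was called between the genotypes. At D4, 0 of 7 were called (limma, 4 at an unadjusted p under 0.05), against 4.23% of all tested genes. At D3, 0 of 7 were called (1 at an unadjusted p under 0.05), against 2.49% of all genes. For the average over both days, 0 of 7 were called (3 at an unadjusted p under 0.05), against 4.66% of all genes, and by the adjusted p alone 1 of 7 passed, Socs2, against 7.94%. The median log2 genotype effect over the members was -0.12 at D4 and 0.02 at D3, beside -0.02 at both days over all genes. The 95% intervals at D4 reach beyond 1.5-fold for Stat5a, Elf5, Socs3 and Wnt4, and stay within it for Cish and Socs2.

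**Figure D3:**
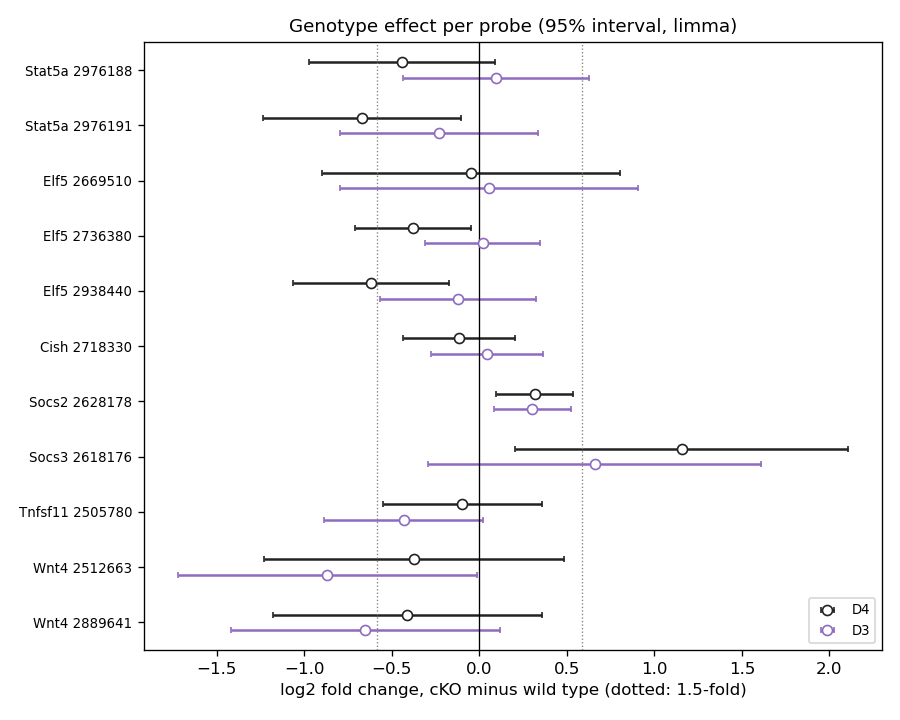
Log2 fold change of cKO over wild type (x axis, with 95% intervals from limma) for each of the 11 tested probes (y axis) at D4 and at D3, with dotted lines at 1.5-fold. No point is filled, since no probe was called, and the intervals of Socs2 lie above 0 at both days, from 0.10 to 0.53 at D4 and from 0.08 to 0.52 at D3.

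**Figure D4:**
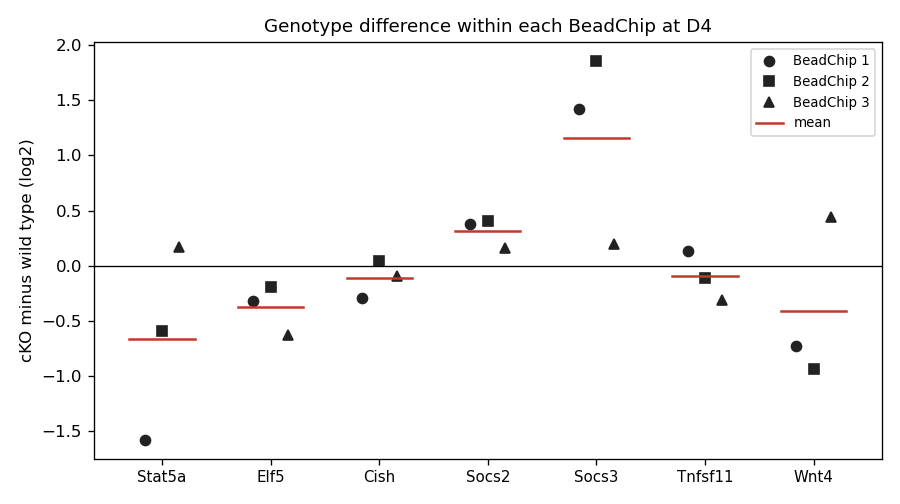
Difference of the cKO and the wild type array on the same BeadChip at D4 (y axis, log2) for the 7 tested members (x axis, brightest probe), with 1 point for each of the 3 BeadChips and a line at the mean. Elf5 lies below 0 and Socs2 and Socs3 above 0 on all 3 BeadChips. Stat5a, Cish, Tnfsf11 and Wnt4 each have 1 BeadChip above 0, at 0.17, 0.04, 0.13 and 0.44.

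Upstream of STAT5, 13 of 16 listed receptor, kinase and adaptor genes were tested. Of these 1 was lower in the cKO at D4, none passed at D3, and 2 rose between the days in wild type. Over all tested genes 4.23% were called at D4, 2.49% at D3 and 7.09% higher between the days in wild type. The list medians were -0.01 at D4 and -0.05 at D3, beside -0.02 at both days over all genes. The gene lower in the cKO was Irs2, an adaptor of the insulin and cytokine receptors. Its genotype difference at D3 was -0.25 (adjusted p = 0.774), and its day effect in the cKO was 0.07 (adjusted p = 0.911). It read 9.54, 9.79 and 9.24 in D4 cKO cultures, against 10.39, 10.77 and 10.62 in D4 wild type cultures, and the groups did not overlap. Its log2 fold change between the genotypes at D4 was -1.07 (standard error 0.25, adjusted p = 0.0353), a call that was lost in 8 of 20 alternative settings. Among these were the fits without D3 cKO replicate 2, D3 wild type replicate 3, D4 cKO replicate 1 or 3 and D4 wild type replicate 2 or 3, with adjusted p values up to 0.116. Irs2 also rose by 0.88 between the days in wild type (adjusted p = 0.0315), which was lost without replicate 1 or 3 of D3 wild type or replicate 2 or 3 of D4 wild type (adjusted p up to 0.0971). Ghr, the growth hormone receptor, rose between the days in wild type by 0.72 (adjusted p = 0.00414), reading 10.80, 10.90 and 10.86 in D4 wild type, against 9.93, 10.45 and 10.01 in D3 wild type cultures, and this held in all 22 alternative settings. The kinase gene Jak2 gave 0.26 at D4 (adjusted p = 0.330) and -0.13 at D3 (adjusted p = 0.771) between the genotypes, while the kinase gene Src gave 0.55 at D4 (adjusted p = 0.0933). The adaptor list gene Vav2 gave -0.32 at D4 (adjusted p = 0.0945) and -0.28 on average over the days (adjusted p = 0.032, under 1.5-fold).

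Of the other STAT genes, 3 of 5 listed were tested and 1, Stat2, rose in the cKO at D4 and at D3, against 4.23% and 2.49% of all tested genes called. Its product works in the interferon response. It read 10.57, 10.77 and 10.79 in D4 cKO cultures, against 9.49, 9.38 and 9.15 in D4 wild type cultures. The D3 arrays gave 9.61, 10.42 and 9.64 in cKO and 8.27, 8.43 and 8.20 in wild type cultures. The genotypes did not overlap at either day, with log2 fold changes of 1.37 at D4 (adjusted p = 0.00195) and 1.59 at D3 (adjusted p = 0.000774), and both calls held in all 20 alternative settings. Stat3 gave -0.03 at D4 (adjusted p = 0.944) and -0.01 at D3 (adjusted p = 0.991), and Stat6 0.14 at D4 (adjusted p = 0.589) and -0.05 at D3 (adjusted p = 0.909).

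Of the 16 listed negative regulators other than the members, 13 were tested and none was called between the genotypes, with medians of 0.07 at D4 and 0.01 at D3. Over all tested genes 4.23% were called at D4, 2.49% at D3 and 4.89% lower between the days in wild type. Between the days in wild type, Socs4 fell (log2 fold change -0.60, adjusted p = 0.0118), which a second Socs4 probe did not share (-0.07, adjusted p = 0.841). The fold was under 1.5 without D4 wild type replicate 1 (-0.48) or D3 wild type replicate 2 (-0.55). The phosphatase gene Ptpn2, whose product dephosphorylates JAK and STAT proteins, gave -0.51 between the days in wild type (adjusted p = 0.0173, under 1.5-fold). The largest genotype effects at D4 in this list were 0.30 for Cblb (adjusted p = 0.491), 0.25 for Ptpn1 (adjusted p = 0.390) and 0.24 for Pias3 (adjusted p = 0.326).

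Downstream of STAT5, 6 of 8 listed milk genes were tested. None was called between the genotypes at either day, with medians of -0.85 at D4 and -0.03 at D3, and 1 was called between the days in wild type, with a median of 0.76. In the cKO the median day effect was 0.11. Over all tested genes 4.23% were called at D4, 2.49% at D3 and 7.09% higher between the days in wild type. Csn2, which encodes beta-casein, read 11.98, 12.79 and 12.75 in D4 cKO cultures, against 13.85, 13.88 and 13.95 in D4 wild type cultures. At D3 it read 13.20, 12.63 and 9.24 in cKO and 9.93, 13.11 and 12.14 in wild type cultures. At D4 every cKO array lay below every wild type array, while at D3 cKO replicate 3 and wild type replicate 1 were far below the others. The difference at D4 was -1.39 (standard error 0.94, adjusted p = 0.477), and the D3 arrays share in the estimate of the spread.

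Csn1s1, an alpha-casein gene, also did not overlap between the genotypes at D4 and had the same low D3 arrays. It read 12.07, 12.69 and 12.53 in D4 cKO and 13.46, 13.19 and 13.58 in D4 wild type cultures, with a difference of -0.98 (standard error 0.48, adjusted p = 0.297). D3 arrays showed 12.86, 12.64 and 11.06 in cKO and 10.94, 12.67 and 12.19 in wild type cultures, with a difference of 0.25 (adjusted p = 0.891). Its day effect was 1.48 in wild type (adjusted p = 0.0534) and 0.24 in the cKO (adjusted p = 0.813). Csn1s2b, another casein gene, was detected on no D3 array, on 2 of 3 D4 cKO arrays and on 3 of 3 D4 wild type arrays. It was tested only because D4 arrays detected it, and it rose at least 1.47-fold between the days in wild type (adjusted p = 0.00994, 0.0807 on the authors' processed values). Without background correction the fitted change was 0.42 (adjusted p = 0.0118), under 1.5-fold.

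Wap, which encodes whey acidic protein, was detected on 0 of 3 D4 cKO and 3 of 3 D4 wild type arrays and was at least 2.27-fold lower in D4 cKO cultures, which did not pass (adjusted p = 0.214). The values at D3 were 8.33, 6.96 and 5.31 in cKO and 5.96, 7.57 and 7.64 in wild type cultures, with the same pair of low arrays as Csn2. Csn3, the kappa-casein gene, went the other way at D4, at 14.76, 14.80 and 14.79 in cKO and 14.47, 14.32 and 14.51 in wild type cultures (difference 0.35, adjusted p = 0.0813). Glycam1, a secreted mucin of milk, was detected on no D4 array.

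**Figure D5:**
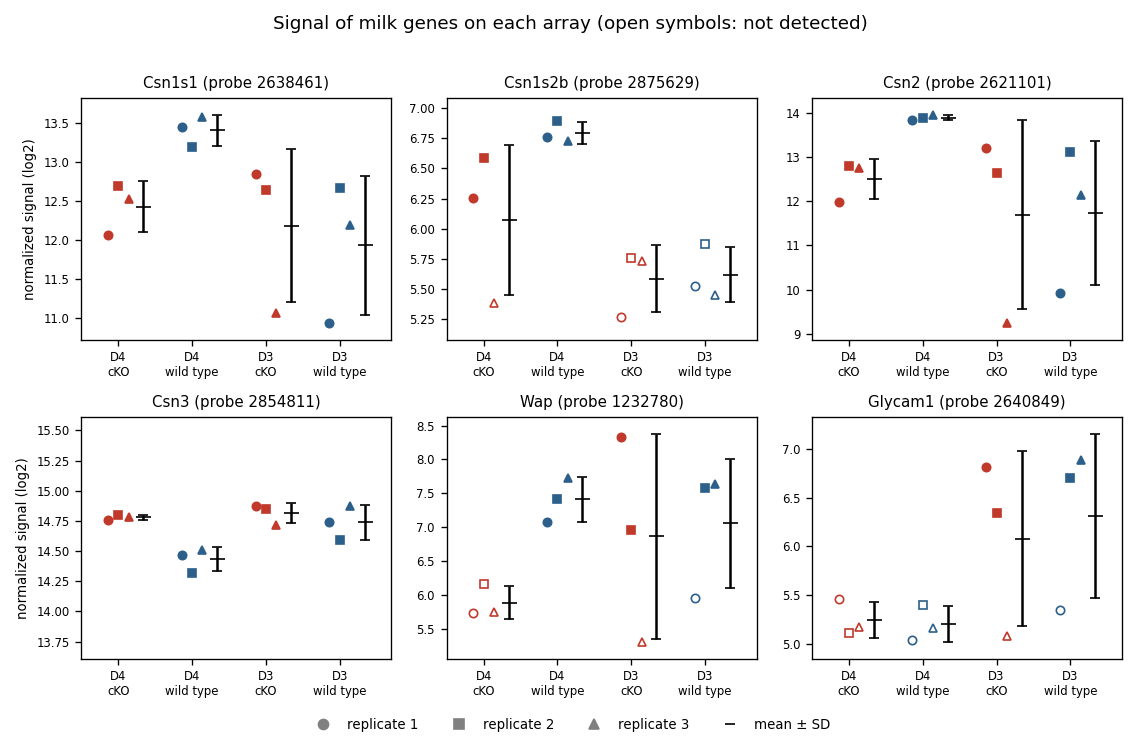
Normalized log2 signal (y axis, own range for each panel) of 6 milk genes on each of the 12 arrays, by group (x axis), with mean ± SD of 3 arrays beside the points and open symbols where the probe was not detected. Csn2 and Csn1s1 do not overlap between the genotypes at D4, where Csn2 lies from 11.98 to 12.79 in cKO and from 13.85 to 13.95 in wild type cultures, and both spread widely at D3.

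Of 12 other listed targets of STAT5, 11 were tested and 1, Cdkn1a, rose in the cKO at both days, with medians over the list of -0.04 at D4 and 0.03 at D3. Over all tested genes 4.23% were called at D4 and 2.49% at D3. Cdkn1a encodes the cell cycle inhibitor p21, which p53 also induces. It read 13.24, 13.32 and 12.77 in D4 cKO cultures, against 11.92, 11.98 and 11.90 in D4 wild type cultures (log2 fold change 1.18, standard error 0.17, adjusted p = 0.00245). On the D3 arrays it gave 13.06, 13.22 and 12.61 in cKO and 12.18, 12.04 and 11.96 in wild type cultures (0.90, adjusted p = 0.0159). The groups did not overlap at either day, and the D4 call held in all 22 alternative settings while the D3 call was lost in 7 of 22. These were another Cdkn1a probe (2846776), the fits of only the 2 groups with and without the replicate block, and 4 fits without 1 array. The arrays were D3 cKO replicate 1 or 2 and D3 wild type replicate 2 or 3 (adjusted p up to 0.0811). Over all 22 settings the adjusted p at D3 reached 0.121. Igf1 gave -0.27 at D4 (adjusted p = 0.309) and -0.48 at D3 (adjusted p = 0.128), and Myc -0.35 at D4 (adjusted p = 0.250).

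Of the alveolar and hormone response factors, 7 of 13 listed were tested and none was called between the genotypes, with medians of 0.03 at D4 and -0.09 at D3. Over all tested genes 4.23% were called at D4, 2.49% at D3 and 4.89% lower between the days in wild type. Foxa1, a pioneer factor of hormone-sensing luminal cells, fell by 0.99 between the days in wild type (adjusted p = 0.0327), which was lost in 7 of 20 alternative settings, among them those without D4 wild type replicate 1 or 3 and D3 wild type replicate 2 or 3 (adjusted p up to 0.115). The luminal factor gene Elf3, an ETS relative of Elf5, gave 0.49 between the days in wild type (adjusted p = 0.0274, under 1.5-fold) and 0.13 between the genotypes at D4 (adjusted p = 0.666). Nfib, a partner of STAT5 at milk genes, gave -0.22 at D4 (adjusted p = 0.307).

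Of 17 listed receptors and partners of RANKL and the WNT ligands, 12 were tested, with medians of 0.07 at D4 and 0.15 at D3. Between the genotypes 1 was called, at D4, against 4.23% of all tested genes at D4 and 2.49% at D3. This was Tnfrsf11b, which encodes osteoprotegerin, the decoy receptor that binds RANKL. It read 11.23, 11.19 and 10.93 in D4 cKO cultures, against 10.33, 10.28 and 10.24 in D4 wild type cultures, without overlap (log2 fold change 0.83, standard error 0.14, adjusted p = 0.0063). The difference at D3 was 0.14 (adjusted p = 0.779), and the D4 call was lost in 1 of 20 alternative settings (adjusted p = 0.0557). Fzd2, a WNT receptor gene, gave 0.67 at D4 (adjusted p = 0.135). Tnfrsf11a, which encodes the receptor RANK, gave -0.29 at D4 (adjusted p = 0.375) and 0.26 at D3 (adjusted p = 0.584). Wnt5a was higher in the cKO on average over the days (0.71, adjusted p = 0.0278), which was lost in 10 of 19 alternative settings. These were its second probe (0.42, adjusted p = 0.310), no background correction (0.57, under 1.5-fold) and the fits without replicate 1 or 2 of either cKO group or replicate 2 or 3 of either wild type group (adjusted p up to 0.0735).

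Some basal and fibroblast markers were higher in cKO cultures. The summed linear signal of the 12 tested basal markers ranged from 81600 to 97000 in D4 cKO and from 65800 to 74700 in D4 wild type cultures, and from 84900 to 103000 in D3 cKO and from 76500 to 82900 in D3 wild type cultures. That of the 11 fibroblast markers, all tested, ranged from 24800 to 32200 in D4 cKO and from 14900 to 25500 in D4 wild type cultures, and from 21500 to 26800 in D3 cKO and from 14100 to 18100 in D3 wild type cultures. Pdpn, Fbln2 and Vim make up most of the fibroblast sum. Of the basal markers 2 (Krt17 and Actg2) rose at D4 and 1 (Cdh3) at D3, and of the fibroblast markers 1 (Pdpn) at each day. Over all tested genes 4.23% were called at D4 and 2.49% at D3. On average over the days, 7 of the 12 basal markers (Krt5, Acta2, Myh11, Tagln, Mylk, Cdh3 and Actg2) and 3 of the 11 fibroblast markers (Col1a2, Vim and Pdpn) rose in the cKO. Over all tested genes 4.66% were called. The other 5 basal markers (Krt14, Krt17, Trp63, Itgb4 and Itga6) and 8 fibroblast markers were not called on average. Of these, the basal markers Krt14 and Itgb4 had a lower mean in the cKO at D3. At D4 the basal markers Trp63, Itgb4 and Itga6 and the fibroblast markers Pdgfra and Dcn did. The 13 tested luminal markers summed to 93600 to 96600 in D4 cKO and 88100 to 94500 in D4 wild type cultures, and to 90900 to 101000 in D3 cKO and 96400 to 102000 in D3 wild type cultures, and none was called between the genotypes. The closest was Kit, a receptor of luminal progenitors, at D4, with 10.11, 10.27 and 10.34 in cKO and 11.82, 10.81 and 11.09 in wild type cultures (log2 fold change -1.01, adjusted p = 0.0504). The part of these shifts in the genotype effects of the pathway genes was not tested. The 8 endothelial markers, all tested, summed to 2500 to 3490 in D4 cKO and 1940 to 3560 in D4 wild type cultures, and to 3440 to 3750 in D3 cKO and 3210 to 3540 in D3 wild type cultures, and none was called between the genotypes. The 5 tested of 9 myeloid markers, without Ptprc, Cd68, Adgre1 and Itgam, summed to 14300 to 20800 in D4 cKO and 19800 to 23100 in D4 wild type cultures, and to 15600 to 16400 in D3 cKO and 12300 to 18000 in D3 wild type cultures. Of these Lyz2, the lysozyme gene of macrophages, fell at D4, with 9.996, 9.925 and 9.958 in cKO and 11.518, 10.894 and 10.978 in wild type cultures (log2 fold change -1.17, adjusted p = 0.00734), and on average over the days (-0.75, adjusted p = 0.00916). The other 4 were not called between the genotypes and had both signs at D4, with -0.34 for Cd14 (adjusted p = 0.387), which makes up most of the sum, -0.48 for Tyrobp (0.580), 0.22 for Csf1r (0.505) and 0.15 for Fcer1g (0.881).

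A few markers were also called between the days in wild type, the comparison in which Elf5 and Stat5a were called. Kit rose by 0.84 (adjusted p = 0.0429), the basal factor gene Trp63 by 0.76 (0.0423) and the fibroblast marker Pdgfra by 1.17 (0.0438), while the basal keratin gene Krt17 changed by -0.67 (0.00824), the endothelial marker Emcn by -0.73 (0.0317) and Foxa1 as given above. These were 1 of 13 luminal, 1 of 12 basal and 1 of 11 fibroblast markers higher and 1 of 13 luminal, 1 of 12 basal and 1 of 8 endothelial markers lower. None of the 5 myeloid markers was called. Over all tested genes 7.09% were called higher and 4.89% lower, so these few calls lie near the share over all genes. The part of these markers in the day effects of Elf5 and Stat5a was not tested.

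The genes whose signal followed each member most closely over the 12 arrays were taken by Pearson's r of the log2 values, as a description. For Stat5a they were Cldn2 (r = 0.965), H2-Ke6 (0.949) and S100a9 (0.941). For Elf5 they were Kiz (0.969), Lgalsl (0.959) and Map1lc3b (0.955), and for Cish Cab39l (0.947), Rsph3a (0.929) and Ndufv3 (0.910). For Socs2 they were H4c3 (0.931), Rhoq (0.921) and H4c18 (0.915), and for Socs3 Htr1d (0.960), Cntn2 (0.952) and Pappa (0.940). For Tnfsf11 they were Ttll5 (0.891), Cct8 (0.842) and Ccdc166 (0.836), and for Wnt4 Slc25a10 (0.943), Aldh3a1 (0.925) and Tatdn2 (0.917). The 12 points of each correlation fall into 4 groups and share normalization, and none of these genes is another member.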

How the data were processed

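RNA was measured on Illumina Mouse WG-6 v2 BeadChips. The intensity values are as deposited, summarised per probe by the authors in GenomeStudio without normalization. The detection p-values are as deposited by the authors. The authors' processed intensity values, rank-invariant normalized and linear, served as an alternative, floored at 10. The deposited signals went through neqc (limma 3.58.1, R 4.3.3, offset 16), which corrects the background, normalizes by quantiles and takes log2, so fold changes of dim probes are understated. Tests covered the 19972 of 45281 probes that at least 3 arrays detected (p under 0.05). The annotation gives 1 symbol to 34885 probes, several to 18 and no symbol to 10378, and the brightest tested probe stands for its gene. A single limma model held the 4 group means, with Benjamini-Hochberg adjustment over the tested probes. Calls needed an adjusted p no higher than 0.05 together with a 1.5-fold change, except for the change of the genotype effect between the days, which needed the adjusted p only. A probe detected on no array of a group has only a bound there. The members and gene lists were chosen with earlier results of these data known. Named genes are all members, the called genes of each list, filled up with its largest genotype effects where fewer than 3 were called, and the 3 genes most like each member. Jak2, Ptpn2, Tnfrsf11a, Csn3, Glycam1 and the cell type markers were named outside this rule, after their values were seen. Precision is limited by the number of arrays.

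Same-numbered D4 arrays share a BeadChip: the study's probe table is headed by BeadChip and equals the deposited processed values for 598 of 598 probes on each D4 array. For D3 the sources used here name no BeadChip. Deviations from the group means correlated between same-numbered arrays at -0.05, 0.03 and -0.08 (genotypes, D4), 0.14, 0.09 and 0.10 (genotypes, D3), 0.308, 0.355 and 0.362 (days, cKO) and 0.18, 0.13 and 0.08 (days, wild type). The main fit takes all arrays as independent. Standard errors and adjusted p of all averages over the days may thus be too small where same-numbered arrays are alike. The replicate number was tried as a block over all arrays and within each genotype. The block within a genotype, and the block in fits of 1 day, were chosen after seeing the data. Other alternatives were the authors' processed values, no background correction, no filter, a detection p under 0.01, trended and robust variances, fits of only the groups compared, another probe and leaving out each array.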

Additional observations from a re-analysis of the deposited data

How the results depend on the processing

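No alternative changed the count of members called between the genotypes at D3, which was 0. Without 1 array it was 0 to 1 at D4 and 0 to 1 for the average over the days, where it was also 1 without background correction and 1 with the replicate number as a block, each time Socs3, against 0. Between the days in wild type the count of members was 1 without a filter, 1 with the replicate number as a block and 1 with only the 2 groups in the fit, since Stat5a was lost, and 1 to 2 without 1 array, against 2. In the cKO, and for the change between the days, no alternative called a member. The block with pairs of the same number changed no member's call at a single day.

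Over all genes, the fit of only the 2 groups with the replicate block gave 172 calls at D3 (against 267) and 214 at D4 (against 454), and the fit of only the 2 groups gave 82 between the days in the cKO (against 444). Without background correction 307 genes were called on average over the days (against 500) and 745 between the days in wild type (against 760 higher and 524 lower). The change of the genotype effect between the days gave 4 genes without background correction, 1 with the replicate block and 6 with trended and robust variances, against 0. Without 1 array the counts were 176 to 283 at D3, 274 to 490 at D4, 384 to 558 for the average, 143 to 545 between the days in the cKO and 983 to 1297 in wild type. The cause of these changes was not tested.

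The direction turned for values that were not called. Another probe gave 0.096 for Stat5a at D3, -0.123 for Elf5 at D3 and 0.005 for Elf5 on average, and the processed values gave 0.005 for Cish on average. Without 1 array, the genotype effect at D3 lay from -0.047 to 0.096 for Elf5 and from -0.09 to 0.118 for Cish, that at D4 from -0.267 to 0.093 for Tnfsf11, and the average from -0.102 to 0.019 for Cish. The day effect in the cKO lay from -0.049 to 0.787 for Socs3, from -0.052 to 0.152 for Tnfsf11 and from -0.549 to 0.063 for Wnt4, and that in wild type from -0.483 to 0.167 for Socs3. The change between the days lay from -0.054 to 0.053 for Socs2 and from -0.121 to 0.578 for Wnt4. Tnfsf11 lies at the edge of detection, and Stat5b was not detected, which limits what these arrays can show for them.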
